A study of Mus musculus with 7 samples.

Results

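Polyunsaturated fatty acids are made from the essential fatty acids of the diet by enzymes of the endoplasmic reticulum that add double bonds (desaturases) and carbon pairs (elongases), and 10 genes of this pathway were followed here in mouse prostate: the desaturase genes Fads1, Fads2, Fads3 and Fads6, the elongase genes Elovl2 and Elovl5, the genes of the other elongation steps Tecr, Hsd17b12 and Hacd3, and Acsl4. They were chosen by symbol, and all 10 were found among the 16019 genes listed for every library. Tissue came from mice with experimental autoimmune prostatitis (EAP), an inflammation of the gland that follows immunisation. The 4 LIT-927 libraries came from EAP mice injected intraperitoneally with LIT-927, at 25 mg/kg per day for 14 days. LIT-927 is a synthetic compound that neutralises the chemokine CXCL12 and so hinders signalling through its receptor CXCR4. The 3 vehicle libraries came from EAP mice injected with the solvent, methyl-β-cyclodextrin, over the same 14 days. Both groups thus carried the induced disease. The labels give no strain, age or immunising antigen, nor whether 1 library stands for 1 animal. The p-values therefore rest on the scatter among these libraries, part of which could be technical.

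The values were FPKM, that is, fragment numbers divided by gene length and by library size, which puts genes of unlike length on 1 scale. Between libraries FPKM compare less directly here, because the 10 most abundant genes took 22.2% to 72.3% of a library's FPKM and median-of-ratios scaling factors ran over 0.665 to 1.31. The whole fragments behind them summed to 32048957 to 35263449 per library. All 7 libraries held transcripts of prostate lumen, among them Pbsn (probasin), at 129 to 8963 FPKM with LIT-927 and 1283 to 11311 FPKM with vehicle. They also held seminal vesicle secretory transcripts such as Svs2, at 49765 to 159456 FPKM with LIT-927 and 26188 to 104622 FPKM with vehicle. Svs1 of that tissue was at 11062 FPKM in LIT-927 replicate 3, against 38.8 to 243 FPKM in the other LIT-927 libraries. It was at 11985 and 25355 FPKM in vehicle replicates 3 and 4, against 80.9 FPKM in vehicle replicate 1. Svs3a, Svs3b, Svs4 and Svs6 were also far higher in LIT-927 replicate 3 and vehicle replicates 3 and 4. Svs2, Svs5 and Pate4 were not. Libraries differed in make-up within both groups. Upk1a, a uroplakin of the urinary tract lining, was at 253 FPKM in LIT-927 replicate 3 and 172 FPKM in vehicle replicate 3, against 6.64 to 10.1 FPKM in the other LIT-927 libraries and 2.64 and 9.78 FPKM in the other vehicle libraries. In bulk tissue, fewer cells of a type and less RNA per cell cannot be told apart.

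Fatty acid desaturation and elongation alternate. FADS2 puts in the first double bond, an elongase (ELOVL5 for shorter, ELOVL2 for longer substrates) condenses the chain with malonyl-CoA, HSD17B12 reduces, HACD3 dehydrates and TECR reduces again, and FADS1 then puts in the next double bond to give arachidonic and eicosapentaenoic acid. ACSL4 joins arachidonic acid and related chains to coenzyme A, which lets them enter phospholipids, and it is known for making membranes prone to lipid peroxidation and ferroptosis. Fads2 and Fads1 are known targets of the transcription factors SREBP-1 and PPARα, and the series title links Fads2 to CXCR4 through PPARγ.

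Of the 10 members, 9 had an entry in the RefSeq promoter table (build GRCm38.p6, 250 bases before to 50 after the RefSeq start), and Fads1 had none. These starts can lie inside the GENCODE spans given below. The Fads2 window, 10101454 to 10101753, lies almost wholly within the GENCODE span of the gene, which ends at 10101746. The Tecr window begins at 83594442, inside a minus-strand span that ends at 83607971. The promoters of Fads2, Fads6 and Acsl4 are shown because these genes, with Fads1, had the largest SD of log2(FPKM + 1) across libraries. That of Elovl5 is shown because it held nearly level in FPKM as deposited. Capitals mark matches on either strand to a DR1 element, the half-site AGGTCA, the CCAAT box, the GC box GGGCGG, the E-box CACGTG and the sterol regulatory element core TCACNCCAC. A DR1 element is a pair of nuclear receptor half-sites a base apart, as bound by PPAR with RXR. Within DR1, each half-site could be AGGTCA or GGGTCA. The motifs were chosen after the promoters had been read. Each is written 5′ to 3′ on the strand of its gene; the windows are Fads2 chr19:10101454-10101753 (minus), Fads6 chr11:115297513-115297812 (minus), Acsl4 chrX:142390486-142390785 (minus) and Elovl5 chr9:77917115-77917414 (plus).
Fads2: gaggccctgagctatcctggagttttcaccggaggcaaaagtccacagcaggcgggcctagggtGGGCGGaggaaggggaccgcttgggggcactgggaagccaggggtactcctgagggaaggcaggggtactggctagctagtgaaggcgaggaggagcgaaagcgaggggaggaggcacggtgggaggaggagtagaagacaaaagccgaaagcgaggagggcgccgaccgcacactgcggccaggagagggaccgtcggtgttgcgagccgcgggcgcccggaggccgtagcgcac
Fads6: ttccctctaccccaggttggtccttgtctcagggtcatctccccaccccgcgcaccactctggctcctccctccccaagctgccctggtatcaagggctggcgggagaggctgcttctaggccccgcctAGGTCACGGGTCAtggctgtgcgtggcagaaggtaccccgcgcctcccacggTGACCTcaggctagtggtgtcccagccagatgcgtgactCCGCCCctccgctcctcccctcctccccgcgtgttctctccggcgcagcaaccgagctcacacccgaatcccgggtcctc
Acsl4: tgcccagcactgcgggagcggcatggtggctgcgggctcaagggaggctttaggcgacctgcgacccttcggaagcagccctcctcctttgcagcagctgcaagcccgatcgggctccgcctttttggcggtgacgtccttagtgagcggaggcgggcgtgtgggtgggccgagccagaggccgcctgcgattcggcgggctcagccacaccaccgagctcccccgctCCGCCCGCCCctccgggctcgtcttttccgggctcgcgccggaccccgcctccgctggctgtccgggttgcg
Elovl5: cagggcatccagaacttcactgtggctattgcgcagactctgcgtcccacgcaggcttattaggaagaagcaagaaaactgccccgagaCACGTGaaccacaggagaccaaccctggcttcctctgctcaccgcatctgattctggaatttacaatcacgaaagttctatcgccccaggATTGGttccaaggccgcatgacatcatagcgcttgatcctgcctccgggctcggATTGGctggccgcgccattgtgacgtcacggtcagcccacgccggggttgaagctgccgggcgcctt
A DR1 match stood in the Fads6 window at -121 to -109 from the RefSeq start, overlapping 1 of its 2 AGGTCA matches. Of the 32851 promoters searched, 0.128% held a DR1 match. The other member windows held none. Fads6 was also the one member with the half-site, which 16.3% of all promoters held. The Fads2 window held 1 GC box and the Acsl4 window 2 that overlap, a motif found in 35.7% of all promoters. The Elovl5 window held 2 CCAAT boxes and an E-box, found in 37.4% and 7.15% of all promoters, and no window of a member held the sterol element core, which 1.24% of all promoters did. These are matches of letters, not sites shown to be bound.

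The desaturase genes and Acsl4 differed widely between libraries of the same group, while Elovl5, Tecr, Hsd17b12 and Hacd3 of the elongation steps varied little. Elovl2, the other elongase gene, was barely detected and had groups that did not overlap. Fads2 spanned 95.5-fold across the 7 libraries, Fads1 52.1-fold, Fads6 51.6-fold, Fads3 17.5-fold and Acsl4 11.8-fold. Elovl5, Tecr, Hsd17b12 and Hacd3 spanned 1.87-fold, 1.97-fold, 2.19-fold and 1.73-fold, and Elovl2 7.11-fold. After adjustment, 0 of the 10 members passed the test (limma on log2(FPKM + 1), Benjamini-Hochberg adjusted p under 0.05), and 0% of all 16019 genes did. At an unadjusted p under 0.05, 1 member (Elovl2) and 589 genes, 3.68%, remained. That last count moved with the processing, while 0 genes passed adjustment in every alternative run. It was 475 with voom on recovered fragments, 1349 after median-of-ratios and 1264 after upper-quartile scaling, and leaving out 1 library gave 294 (without LIT-927 replicate 2) to 1334 (without vehicle replicate 4).

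**Figure D1:**
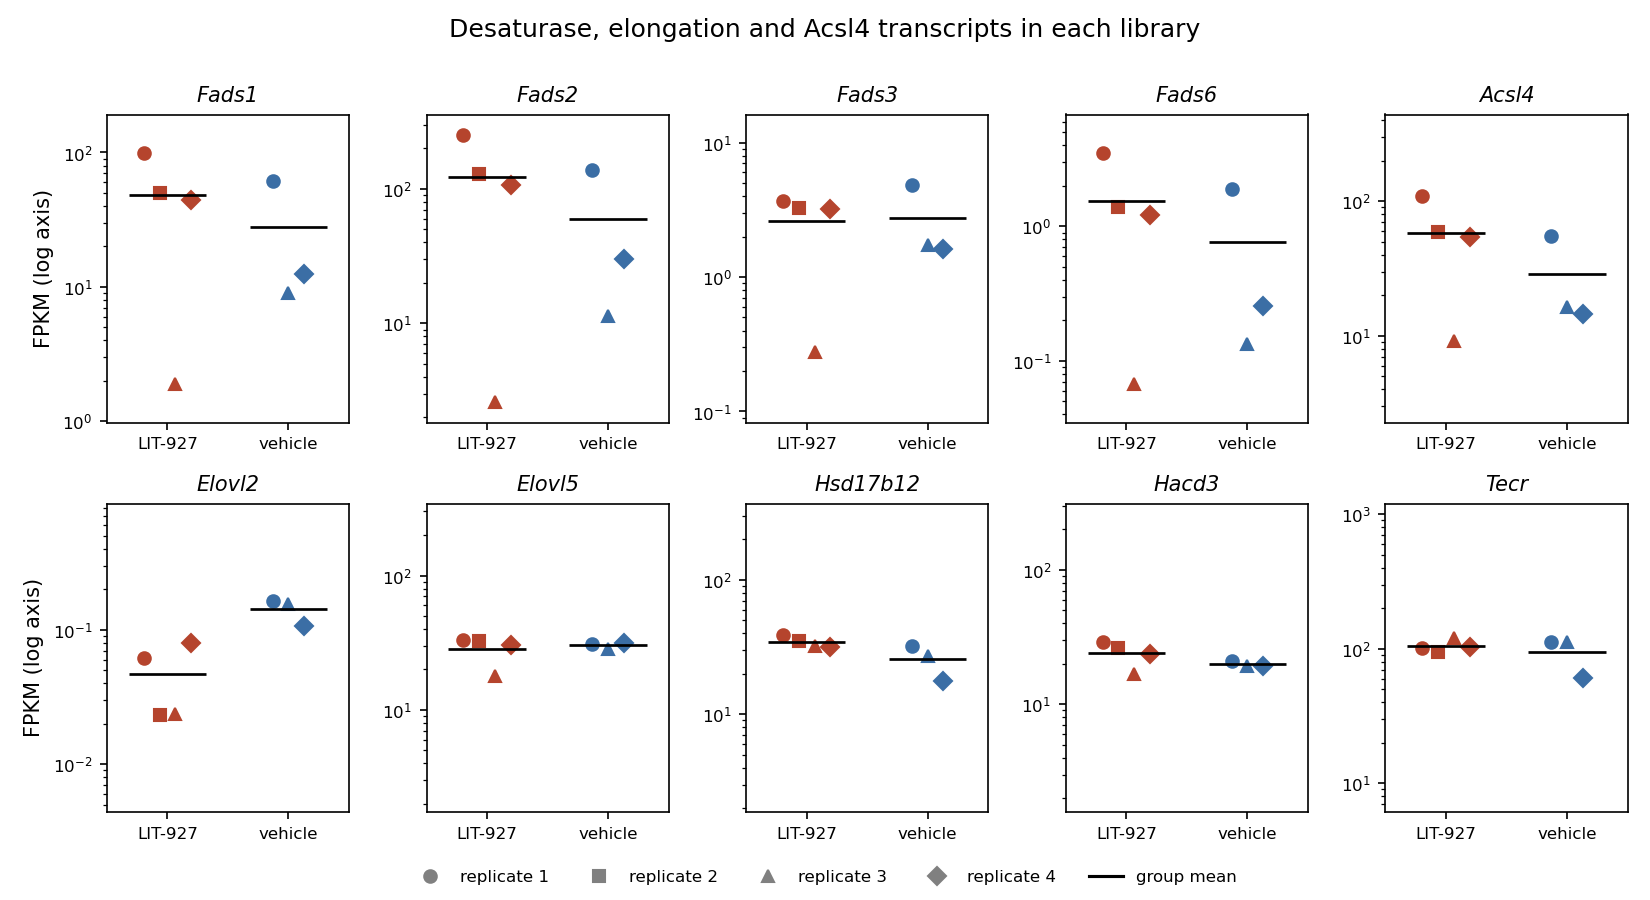
FPKM of the 10 genes in each library, on log axes, for LIT-927 (left, red, n = 4) and vehicle (right, blue, n = 3). Each symbol is a library, its shape gives the replicate number, and the bar is the group mean. Replicate 3 of LIT-927 is lowest in all desaturase panels and for Acsl4, while Elovl5, Hsd17b12, Hacd3 and Tecr vary by at most 2.19-fold.

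Fads2 encodes the delta-6 desaturase and lies on chromosome 19 (mm10, 10062765 to 10101746, minus strand). Its level was 250 FPKM in LIT-927 replicate 1, 128 in replicate 2, 2.61 in replicate 3 and 107 in replicate 4, against 137, 11.4 and 30.1 FPKM in vehicle replicates 1, 3 and 4. The LIT-927 group held both the highest and the lowest library, so the groups overlapped throughout, although 3 of 4 LIT-927 libraries lay above the vehicle mean. The lowest value still rested on 244 fragments and the highest on 23726. Group means were 122 ± 101 FPKM with LIT-927 (SD, n = 4) and 59.6 ± 68.0 FPKM with vehicle (SD, n = 3). On the log2(FPKM + 1) scale LIT-927 minus vehicle came to 0.67, with a 95% interval of -2.79 to 4.13 and SE 1.49 (limma adjusted p = 0.998; two-sided exact permutation p = 0.743), and 2.57% of the sum of squares across libraries lay between the groups. Leaving out LIT-927 replicate 1 turned the sign (-0.02), as did leaving out vehicle replicate 3 (-0.14), while the difference was 2.01 without LIT-927 replicate 3 (limma adjusted p = 0.643).

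Fads1, which encodes the delta-5 desaturase (mm10 chromosome 19, 10182888 to 10196877, plus strand), ranked the libraries exactly as Fads2 did. Its level was 98.9, 49.6, 1.90 and 44.0 FPKM in LIT-927 replicates 1 to 4, against 61.5, 9.07 and 12.5 FPKM in vehicle replicates 1, 3 and 4. Again LIT-927 replicate 1 was the highest and LIT-927 replicate 3 the lowest of all. Group means were 48.6 ± 39.7 FPKM with LIT-927 (SD, n = 4) and 27.7 ± 29.3 FPKM with vehicle (SD, n = 3), a difference of 0.48 on the log2(FPKM + 1) scale (SE 1.22, 95% interval -2.36 to 3.32, limma adjusted p = 0.998; exact permutation p = 0.8286). That sign too turned when LIT-927 replicate 1 was left out (-0.12), and when vehicle replicate 3 was (-0.03).

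The ratio of Fads2 to Fads1 within a library does not depend on how the library was scaled. It was 2.53, 2.59, 1.38 and 2.43 in LIT-927 replicates 1 to 4, against 2.23, 1.25 and 2.40 in vehicle replicates 1, 3 and 4. Both libraries labelled replicate 3, those with high Upk1a, had the low ratios, and the other 5 lay between 2.23 and 2.59. The mean log2 ratio differed by 0.20 between LIT-927 and vehicle (exact permutation p = 0.457, two-sided; the smallest p that 35 divisions allow is 0.0286). Fads2 relative to Elovl5 spread far more, at 7.49, 3.97, 0.146 and 3.49 with LIT-927 and 4.43, 0.399 and 0.963 with vehicle (log2 difference 0.72, exact permutation p = 0.714).

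**Figure D2:**
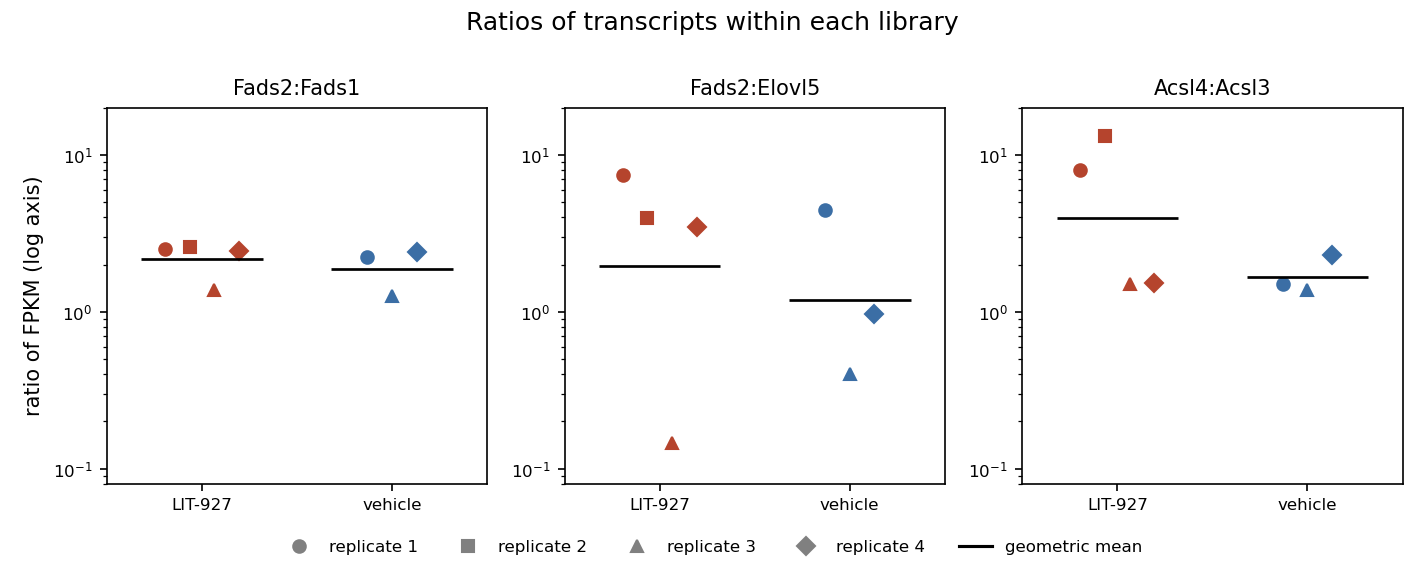
Ratios of FPKM between 2 genes of a library on a log axis, for LIT-927 (left, red, n = 4) and vehicle (right, blue, n = 3), with symbols by replicate number and bars at the geometric mean. Fads2:Fads1 stays between 1.25 and 2.59, while Fads2:Elovl5 runs from 0.146 to 7.49.

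Fads3 adjoins Fads2 on chromosome 19 (10041569 to 10060110, plus strand) and encodes a related protein that desaturates sphingoid bases. It stood far lower, at 3.65, 3.25, 0.276 and 3.20 FPKM in LIT-927 replicates 1 to 4, against 4.83, 1.73 and 1.63 FPKM in vehicle replicates 1, 3 and 4. The low library was once more LIT-927 replicate 3, with 29 fragments. The difference of -0.11 (SE 0.53, 95% interval -1.34 to 1.11, limma adjusted p = 0.998) turned when LIT-927 replicate 3 was left out (0.33), and when vehicle replicate 1 was (0.26). Fads6, on chromosome 11 (115279622 to 115297663, minus strand), is placed in the family by its sequence. It was at 3.49, 1.39, 0.0676 and 1.21 FPKM with LIT-927, against 1.90, 0.133 and 0.255 FPKM with vehicle, from 13 to 683 fragments. Fads6 followed the same order of libraries as Fads2 at a small part of its level, and its difference was 0.48 (SE 0.51, 95% interval -0.70 to 1.67, limma adjusted p = 0.998). Single libraries weighed on that value, which ran over 0.15 without LIT-927 replicate 1 to 0.91 without vehicle replicate 1.

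Neighbouring genes of Fads1 and Fads2 with a mean of at least 5 FPKM varied less between libraries. The starts of these 2 genes face away from each other, 81142 bases apart, and the 3' ends of Fads3 and Fads2 lie 2655 bases apart. Within 250 kb on either side, 9 other listed genes were found, and 3 of them reached that mean: Fth1 (ferritin heavy chain), Fen1 (a flap endonuclease) and Tmem258. Their SD of log2(FPKM + 1) over the 7 libraries was 0.74, 0.34 and 0.42, against 2.22 for Fads2, 1.81 for Fads1 and 0.73 for Fads3. As deposited, nothing says whether counting used the strand, so reads from overlapping transcripts on opposite strands might be counted together.

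Acsl4 (chromosome X, 142317993 to 142390535, minus strand) had the largest difference of the 10 genes on the log2(FPKM + 1) scale. Its level was 109, 58.9, 9.19 and 53.8 FPKM in LIT-927 replicates 1 to 4, against 55.5, 16.2 and 14.4 FPKM in vehicle replicates 1, 3 and 4. LIT-927 replicates 1, 2 and 4 stood close to or above the highest vehicle library, and LIT-927 replicate 3 below all 3. Group means were 57.7 ± 40.7 FPKM with LIT-927 (SD, n = 4) and 28.7 ± 23.2 FPKM with vehicle (SD, n = 3). The difference was 0.83 (SE 0.82, 95% interval -1.09 to 2.74, limma adjusted p = 0.998; exact permutation p = 0.40), and 11.9% of the sum of squares lay between the groups. It kept its sign without any single library, from 0.39 without LIT-927 replicate 1 to 1.53 without LIT-927 replicate 3. Without both replicate 3 libraries it was 1.27 (limma adjusted p = 0.917), and that of Fads2 was 1.21 (limma adjusted p = 0.917).

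Acsl3 encodes another long-chain acyl-CoA synthetase of the same family and varied in another order. It was at 13.5, 4.44, 6.14 and 35.05 FPKM in LIT-927 replicates 1 to 4, against 36.9, 11.9 and 6.29 FPKM in vehicle replicates 1, 3 and 4. The ratio of Acsl4 to Acsl3 was therefore 8.06 and 13.3 in LIT-927 replicates 1 and 2, 1.498 and 1.54 in LIT-927 replicates 3 and 4, and 1.505, 1.37 and 2.29 in vehicle replicates 1, 3 and 4. The mean log2 ratio differed by 1.24 (exact permutation p = 0.314, two-sided), with the groups overlapping, and by 0.66 without LIT-927 replicate 2.

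**Figure D3:**
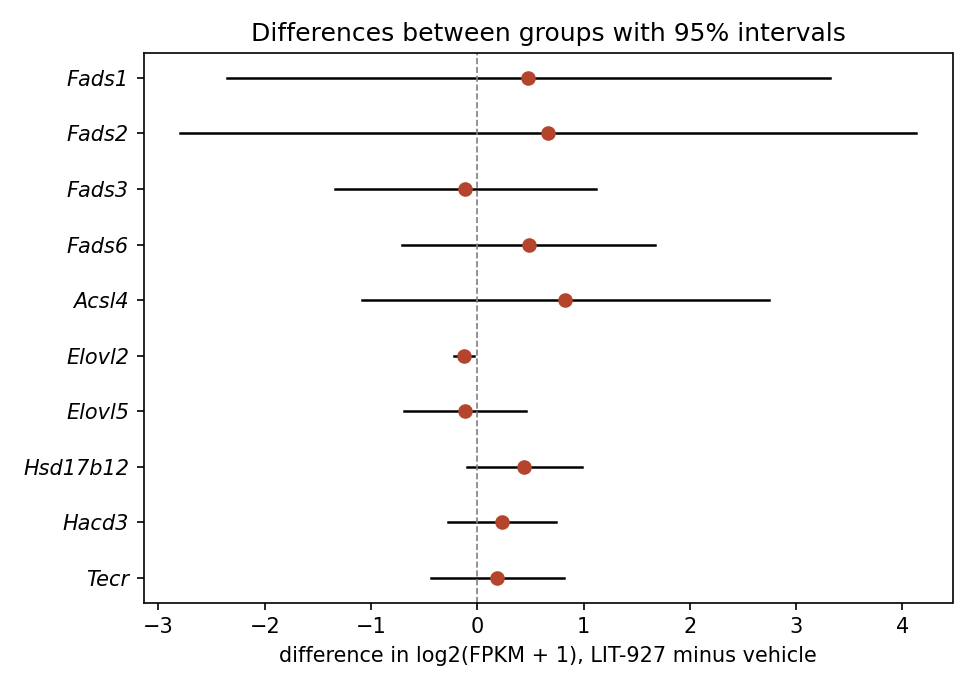
Difference in log2(FPKM + 1) between LIT-927 and vehicle for each gene, with 95% intervals from limma. The intervals of 9 genes span 0, that of Fads2 from -2.79 to 4.13. Elovl2, at -0.13, has an interval of -0.22 to -0.03 before any adjustment over genes.

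Elovl5 (chromosome 9, 77917364 to 77984519, plus strand), the main elongase for shorter polyunsaturated chains, was at 33.4, 32.4, 17.9 and 30.6 FPKM in LIT-927 replicates 1 to 4, against 31.0, 28.5 and 31.2 FPKM in vehicle replicates 1, 3 and 4. All but LIT-927 replicate 3 lay within 28.5 to 33.4 FPKM as deposited. After median-of-ratios scaling Elovl5 was at 29.3, 31.9, 22.0 and 26.5 with LIT-927, against 23.7, 26.4 and 47.0 with vehicle. Vehicle replicate 4 was then the library that stood apart. As deposited, the difference was -0.12 (SE 0.25, 95% interval -0.69 to 0.46, limma adjusted p = 0.998) and 0.09 without LIT-927 replicate 3. Tecr (chromosome 8, 83571698 to 83607971, minus strand), the enoyl reductase of the last step, was at 102, 95.4, 120 and 103 FPKM with LIT-927, against 112, 113 and 61.0 FPKM with vehicle. Unlike the desaturase genes, Tecr was highest in LIT-927 replicate 3. Its difference was 0.19 (SE 0.27, 95% interval -0.43 to 0.81, limma adjusted p = 0.998) and -0.10 without vehicle replicate 4, the one low library as deposited. After median-of-ratios scaling that library was at 91.7, against 86.0 and 104 in vehicle replicates 1 and 3, and Tecr stayed highest in LIT-927 replicate 3 (148).

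Hsd17b12 (chromosome 2, 94032689 to 94157964, minus strand), the ketoacyl reductase, was at 38.9, 35.2, 32.03 and 31.7 FPKM with LIT-927, against 32.4, 27.0 and 17.8 FPKM with vehicle. All 4 LIT-927 libraries lay above the vehicle mean, though vehicle replicate 1 was above 2 of them. Group means were 34.5 ± 3.4 FPKM (SD, n = 4) and 25.7 ± 7.4 FPKM (SD, n = 3), a difference of 0.44 (SE 0.23, 95% interval -0.10 to 0.98, limma adjusted p = 0.998; exact permutation p = 0.0857). It was 0.21 without vehicle replicate 4. After median-of-ratios scaling the groups did not overlap, at 34.2, 34.7, 39.4 and 27.4 with LIT-927, against 24.8, 25.1 and 26.8 with vehicle. The difference of Hsd17b12 was then 0.38 (SE 0.13, limma unadjusted p = 0.0204, adjusted p = 0.574). With that scaling, 1349 of the 16019 genes had an unadjusted limma p under 0.05. The share of all genes whose groups did not overlap was counted only in FPKM as deposited (3.2%). Hacd3 (chromosome 9, 64986983 to 65021693, minus strand), the dehydratase, was at 29.1, 26.4, 16.9 and 23.5 FPKM with LIT-927, against 21.1, 19.4 and 19.2 FPKM with vehicle. As deposited, its LIT-927 libraries lay on both sides of the narrow vehicle range, and the difference was 0.23 (SE 0.22, 95% interval -0.28 to 0.74, limma adjusted p = 0.998). After median-of-ratios scaling the vehicle range was wide, at 16.2, 18.0 and 28.9. It then enclosed the LIT-927 values of 25.6, 26.0, 20.7 and 20.3. The following values are for FPKM as deposited. Leaving out LIT-927 replicate 1 gave 0.13, and leaving out LIT-927 replicate 3 gave 0.38.

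Elovl2 (chromosome 13, 41182381 to 41220405, minus strand), the elongase for longer chains on the way to docosahexaenoic acid, was close to the floor of detection. It was at 0.0618, 0.0232, 0.0236 and 0.0796 FPKM in LIT-927 replicates 1 to 4, from 8, 3, 3 and 11 fragments, against 0.165, 0.157 and 0.107 FPKM in vehicle replicates 1, 3 and 4, from 22, 21 and 15 fragments. Every LIT-927 library was below every vehicle library. Of the 10 genes this was the 1 whose groups did not overlap in FPKM as deposited, and 3.2% of all genes had groups that did not overlap (2.12% with LIT-927 lower). The difference was -0.13 on the log2(FPKM + 1) scale, which compresses low values (SE 0.04, limma unadjusted p = 0.0174, adjusted p = 0.998; exact permutation p = 0.0286, the smallest possible). With voom on recovered fragments it was -1.67 (SE 0.71, limma adjusted p = 0.9998). Mean FPKM was lower with LIT-927 for most markers of 9 of the 10 tissue lists too: all measured markers of fibroblasts (6), smooth muscle (6), adipocytes (6), skeletal muscle (4) and basal epithelium (4), 6 of 7 of leukocytes, 5 of 6 of urothelium, and 6 of 8 each of seminal vesicle and prostate lumen. By a different measure, the mean of log2(FPKM + 1), 44.5% of all genes were lower. Fibroblast and leukocyte markers had summed levels of 59.4 to 210 and 64.6 to 186 FPKM with LIT-927 against 79.5 to 439 and 179 to 540 FPKM with vehicle. Their part in the Elovl2 difference was not tested.

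In level, Fads2 came first with LIT-927 at a mean of 122 ± 101 FPKM, then Tecr (105 ± 11), Acsl4, Fads1, Hsd17b12, Elovl5 and Hacd3 (24.0 ± 5.3). With vehicle, Tecr came first (95.3 ± 29.8), then Fads2, Elovl5 (30.2 ± 1.5), Acsl4, Fads1, Hsd17b12 and Hacd3 (19.9 ± 1.1). In both groups the ranges of neighbours in that order overlapped, apart from the step below Hacd3, where Fads3 (2.59 ± 1.56 FPKM with LIT-927, 2.73 ± 1.82 with vehicle), Fads6 and Elovl2 followed. The ranges of Fads3 and Fads6, and of Fads6 and Elovl2, overlapped as well.

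Among the 6693 genes with a mean of at least 5 FPKM, the median SD of log2(FPKM + 1) over the 7 libraries was 0.37. Fads2, Fads1 and Acsl4 had SDs of 2.22, 1.81 and 1.28, higher than in 98.8%, 98.1% and 95.6% of these genes. Hacd3, Elovl5, Tecr and Hsd17b12 had SDs of 0.27 to 0.35, higher than in 17.6% to 46.5% of them. Of the 21 pairs of libraries, Fads1 and Fads6 put all 21 in the same order as Fads2, and Fads3 and Acsl4 put 19. Elovl5 and Hacd3 put 18, Hsd17b12 16, Elovl2 10 and Tecr 7, where the median of the 6693 genes was 15 and 4.03% of them reached 19 or more.

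**Figure D4:**
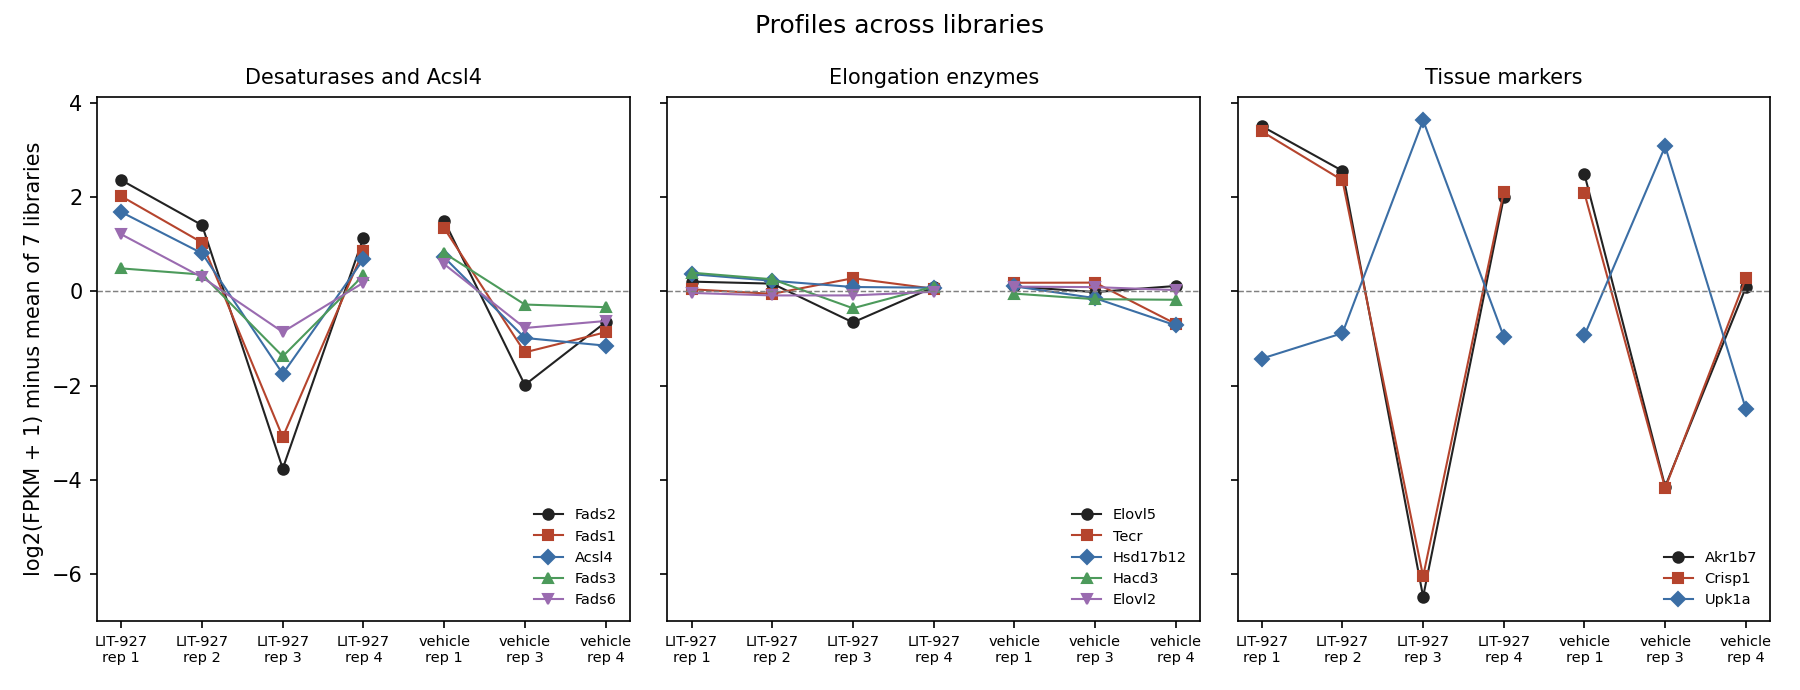
log2(FPKM + 1) of each gene minus its mean over the 7 libraries, with the 4 LIT-927 libraries left of the 3 vehicle libraries in each panel. Fads2, Fads1 and Acsl4 are low in both replicate 3 libraries, where Akr1b7 and Crisp1 are also low and Upk1a is high. They are low in vehicle replicate 4 too, where Upk1a is lowest. The elongation genes stay near 0. Values of Fads3, Fads6 and Elovl2 are compressed by the added 1.

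Likeness to a profile was measured as the mean absolute difference between centred log2(FPKM + 1) values over the 7 libraries, which share tissue make-up. By this measure Fads1 lay 0.39 from Fads2, place 17 among 6692 genes, and Acsl4 lay 0.86 from Fads2, place 83, where the median gene lay 1.64 away. Elovl5, Tecr, Hsd17b12 and Hacd3 lay 1.63 to 1.77 away. The 5 genes outside the pathway set most like Fads2 were Fxyd4 (0.18), a regulator of the sodium pump, Slco2a1 (0.19), a prostaglandin transporter, Glb1l2 (0.25), a galactosidase-like protein, Ephx2 (0.29), the soluble epoxide hydrolase that acts on epoxides of polyunsaturated fatty acids, and Pax8 (0.32), a transcription factor of the genital ducts and kidney. Slco2a1 was at 328, 156, 2.51 and 143 FPKM with LIT-927 and 158, 20.4 and 43.1 FPKM with vehicle, and Pax8 at 36.9, 17.6, 0.133 and 12.5 FPKM with LIT-927 and 16.2, 0.230 and 3.34 FPKM with vehicle. The 5 most like Acsl4 were Pcbd1 (0.13), a cofactor recycling enzyme, Pgrmc1 (0.20), a haem-binding membrane protein, Dbi (0.20), the acyl-CoA binding protein, Apoc1 (0.22), an apolipoprotein, and Idh1 (0.24), the cytosolic isocitrate dehydrogenase that yields NADPH. Dbi was at 283, 185, 48.6 and 137 FPKM with LIT-927 and 164, 47.0 and 46.4 FPKM with vehicle.

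Akr1b7 and Crisp1, the abundant markers on the vas deferens and epididymis list, moved with the desaturase genes. Akr1b7, the vas deferens aldo-keto reductase, was at 17099, 8867, 15.9 and 5998 FPKM in LIT-927 replicates 1 to 4, against 8408, 84.5 and 1597 FPKM in vehicle replicates 1, 3 and 4. It put 20 of 21 library pairs in the same order as Fads2, and 20 as Acsl4. Of the 10 markers on that list 8 were measured and 5 were above 0 in every library, and their summed level was 19.3 to 19628 FPKM with LIT-927 and 98.2 to 9426 FPKM with vehicle. Crisp1, chosen after its values were seen, made up most of the rest, at 2508, 1222, 2.62 and 1034 FPKM with LIT-927 and 1008, 12.2 and 289 FPKM with vehicle, while Gpx5, Adam7 and Rnase10 of the epididymis stayed under 0.5 FPKM in every library. Adam28 of the same list went the other way, at 0.118, 0.0248, 0.611 and 0.325 FPKM with LIT-927 and 0.588, 1.29 and 0.0630 FPKM with vehicle, highest in both replicate 3 libraries. Summed urothelial markers were at 29.3 to 330 FPKM with LIT-927 and 26.8 to 267 FPKM with vehicle. They put 7 pairs in the order of Fads2, and summed seminal vesicle markers 6. Summed prostate lumen markers put 4, the fewest of the 10 lists, while Pbsn alone put 14. The prostate lumen sum was highest in LIT-927 replicate 3 (166252 FPKM) and vehicle replicate 3 (74407 FPKM). Svs1 was highest in LIT-927 replicate 3 and vehicle replicates 3 and 4, the libraries lowest in Fads2. The part of tissue make-up in the spread of Fads1, Fads2, Fads6 and Acsl4 was not tested.

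The rest of the pathway showed no gene that differed after adjustment. Of 80 genes measured on 7 further lists, 0 passed (limma adjusted p at least 0.998) and 1 had an unadjusted p under 0.05. Of these genes 47 had a higher and 33 a lower mean log2 value with LIT-927, against 7 and 3 of the 10 members, where 55.5% of all genes were higher and 44.5% lower. The median difference was 0.34 over the members, 0.09 over the 80 genes and 0.02 over all genes. By list, 7 of 11 other desaturase and elongation genes had a higher mean (median 0.23), 5 of 6 genes that supply electrons through cytochrome b5 (0.15), 6 of 9 other acyl-CoA synthetase genes (0.22), 7 of 13 phospholipid remodelling genes (0.03), 8 of 11 peroxisomal chain-shortening genes (0.26), 9 of 15 regulators (0.09) and 5 of 15 genes of lipid peroxide defence and lipoxygenases (-0.07).

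**Figure D5:**
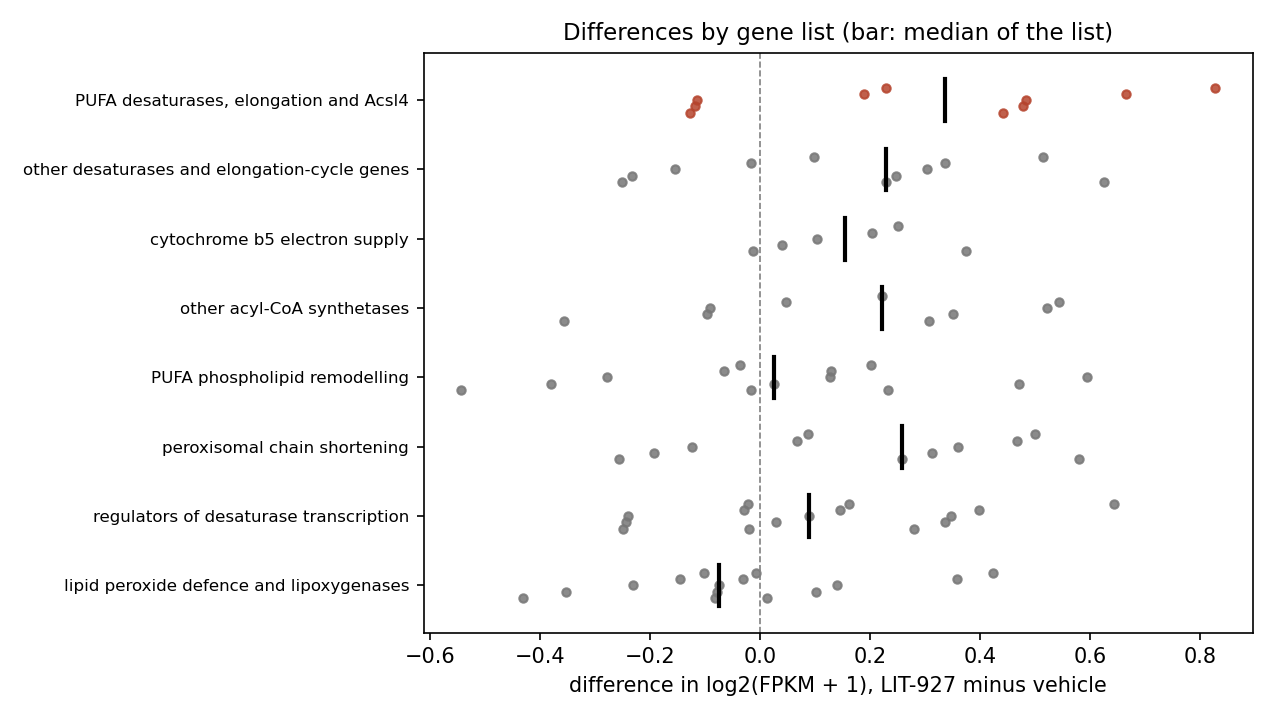
Difference in log2(FPKM + 1) between LIT-927 and vehicle for each gene (points) of the 10 members (red) and the 7 further lists (grey), with a bar at each list's median. The medians lie between -0.07 and 0.34, and no gene passed the test after adjustment.

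Hacd2, a dehydratase of the elongation cycle like Hacd3, was the 1 of these 80 genes whose groups did not overlap. It was at 14.9, 15.4, 9.92 and 12.2 FPKM in LIT-927 replicates 1 to 4, against 9.77, 7.52 and 7.002 FPKM in vehicle replicates 1, 3 and 4. The lowest LIT-927 library was barely above the highest vehicle library. LIT-927 minus vehicle came to 0.63 on the log2(FPKM + 1) scale, with SE 0.23 (limma adjusted p = 0.998; exact permutation p = 0.0571), and 1.08% of all genes were higher in every LIT-927 library.

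Stearoyl-CoA desaturases make monounsaturated chains and are often grouped with Fads genes as SREBP-1 targets. Scd1 and Scd2, chosen after their values were seen, were highest where Fads2 was lowest. Scd1 was at 40.7, 23.0, 88.5 and 40.1 FPKM in LIT-927 replicates 1 to 4, against 49.4, 66.7 and 12.1 FPKM in vehicle replicates 1, 3 and 4. Scd2 was at 126, 99.2, 301 and 134.1 FPKM with LIT-927, against 132, 231 and 68.0 FPKM with vehicle. In both genes the 2 highest libraries were LIT-927 replicate 3 and vehicle replicate 3. The lowest was vehicle replicate 4, where Fads2 was low too, at 30.1 FPKM. Scd3 went another way, at 5.11, 7.11, 2.24 and 4.46 FPKM with LIT-927, against 2.43, 3.31 and 2.73 FPKM with vehicle. It was lowest in LIT-927 replicate 3. None passed the test between groups (log2 differences of 0.30, 0.23 and 0.51 for Scd1, Scd2 and Scd3, limma adjusted p = 0.998 for each).

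Srebf1 and Pparg put the libraries in other orders than Fads2 did. Srebf1, which encodes SREBP-1, was at 25.6, 23.4, 26.1 and 24.3 FPKM with LIT-927, against 25.0, 19.6 and 13.1 FPKM with vehicle. It spanned 1.999-fold, and LIT-927 replicate 3 was the highest library. Its difference was 0.40 (SE 0.23, limma adjusted p = 0.998). Pparg was at 0.0724, 0.0272, 0.599 and 0.119 FPKM with LIT-927, against 0.184, 1.17 and 0.0838 FPKM with vehicle. It was highest in both replicate 3 libraries, where Fads2 was lowest, and put 6 of 21 library pairs in the order of Fads2. Adipoq, an adipocyte marker, was highest in that pair too, at 1.82 FPKM in LIT-927 replicate 3 and 1.65 FPKM in vehicle replicate 3, with 1.42 FPKM in vehicle replicate 1. Insig1, a sterol-regulated partner of SREBP processing, was at 8.06, 11.4, 23.1 and 12.9 FPKM with LIT-927, against 11.8, 9.55 and 4.27 FPKM with vehicle (difference 0.64, SE 0.42, limma adjusted p = 0.998).

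Downstream of Acsl4, Lpcat3, which places polyunsaturated chains in phospholipids, was at 37.8, 26.1, 10.8 and 23.4 FPKM with LIT-927, against 25.0, 17.5 and 19.6 FPKM with vehicle. Pla2g4a, the cytosolic phospholipase that frees arachidonic acid, was at 30.6, 19.8, 6.002 and 14.1 FPKM with LIT-927, against 15.4, 8.82 and 6.71 FPKM with vehicle. Both were highest in LIT-927 replicate 1, as Fads2 and Acsl4 were, and their differences of 0.13 and 0.59 did not pass (limma adjusted p = 0.998 for both). Gpx4, the peroxidase that clears phospholipid hydroperoxides, was at 119, 80.3, 151 and 127 FPKM with LIT-927, against 157, 133 and 72.8 FPKM with vehicle. Its difference was 0.01 (SE 0.34, 95% interval -0.77 to 0.80), and Acsl4 and Gpx4 peaked in different libraries.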

How the data were processed

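RNA of prostate samples from 7 EAP mouse libraries was extracted with TRIzol and sequenced after VAHTS Universal V6 library preparation, per the labels' protocols. The submitters' processing notes list HISAT2, HTSeq, fastp and build mm10, with no versions, roles, annotation or strand setting. The authors deposited FPKM, a unit inferred here from the steps between low values. The headers name expression and library codes but no unit. Whole fragments were recovered for all 16019 genes, within 0.01 fragments, and served for depth and for voom. Counting error covers only part of the spread between libraries. No 2 libraries held identical values.

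Groups follow the titles: LIT-927 replicates 1 to 4 and vehicle replicates 1, 3 and 4. Differences are LIT-927 minus vehicle in log2(FPKM + 1), tested over all genes with limma 3.58.1 (R 4.3.3, mean-variance trend, no filter, no covariate), with calls at an adjusted p (Benjamini-Hochberg) under 0.05. Exact permutation tests used the 35 divisions of 7 libraries into 4 and 3. On data simulated from these libraries (16019 genes, 200 of them changed), log2 changes of 1, 2 and 3 were recovered in 0%, 63.5% and 89% of genes. Unchanged genes called numbered 0, 9 and 11. Changed genes were taken from the more abundant ones. Noise was drawn for each gene alone, without the shifts in make-up that genes of a library share. Recovery for genes as variable as Fads2 was not examined. Coordinates are from GENCODE M21, whose build equals mm10, and promoters from RefSeq. Other steps used SciPy 1.17.1, pandas 2.3.3, NumPy 2.4.6 and matplotlib 3.10.9 in Python 3.11.15.

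The members, lists and alternatives were chosen with earlier results of these data known. Genes named were the 10 members, the 3 smallest p of each list (of which some are given), Pparg, Srebf1, Lpcat3, Gpx4 and Acsl3, 6 tissue markers, and the 5 nearest profiles to Fads2 and to Acsl4 among genes averaging at least 5 FPKM. Scd1, Scd2, Mfsd2a, Hacd4, Crisp1, Lcn5, Aqp9, Adam28, the epididymal genes, the seminal vesicle genes besides Svs2, and the neighbours of Fads2 fall outside that rule. They were chosen after their values were seen. Alternatives left out each library, or both replicate 3 libraries, added a replicate block, scaled by upper quartile or median of ratios, used voom, set the pseudocount to 0.1, or kept genes with 1 FPKM in at least 3 libraries.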

Additional observations from a re-analysis of the deposited data

Results flagged for a closer look

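Among the 4 LIT-927 libraries, 1 stood far from the rest in 2 of 13 values examined (the 10 genes and the 3 ratios). Fads3 was at 0.276 FPKM in LIT-927 replicate 3, and its gap to the next library took 0.867 of the range of the group. The Fads2:Fads1 ratio was 1.38 in that same library, with a gap of 0.867 of the range. Vehicle replicate 3 had a similar ratio, 1.25. Chance marks about 1 in 20 such groups. Both libraries had high Upk1a and low Akr1b7, whose part in these values was not tested.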

How the results depend on the processing

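Under the alternatives, 138 of 149 member differences kept their direction and stayed short of the threshold, and 11, in 5 of the 10 genes, turned sign. The smallest limma adjusted p of a member in any alternative was 0.425. The count of genes past the threshold was 0 in each of the 15 alternatives. The turned values were -0.12 for Fads1 and -0.02 for Fads2 without LIT-927 replicate 1, and -0.03 for Fads1 and -0.14 for Fads2 without vehicle replicate 3. Fads3 turned to 0.33 without LIT-927 replicate 3, 0.26 without vehicle replicate 1, 0.16 without both replicate 3 libraries, and 0.0051 without both after median-of-ratios scaling, a setting added after the data were seen. Elovl5 turned to 0.085 without LIT-927 replicate 3 and 0.044 without both, and Tecr to -0.10 without vehicle replicate 4. The cause of these turns was not tested. Leaving out 1 library at a time gave -0.14 to 2.01 for Fads2, -0.12 to 1.58 for Fads1, -0.32 to 0.33 for Fads3, -0.20 to 0.085 for Elovl5, -0.10 to 0.34 for Tecr, 0.15 to 0.91 for Fads6, 0.21 to 0.62 for Hsd17b12, 0.13 to 0.38 for Hacd3, -0.15 to -0.11 for Elovl2 and 0.39 to 1.53 for Acsl4. It gave -0.10 to 0.42 for the log2 ratio Fads2:Fads1, -0.07 to 1.98 for Fads2:Elovl5 and 0.66 to 1.71 for Acsl4:Acsl3, and the median of all genes moved to between -0.12 and 0.14. Elovl2 had no value under the minimum of 1 FPKM. Replicate numbers are shared between groups in the titles, and the column headers share library numbers between groups too. The labels do not say that a shared number marks a pair, so libraries were not treated as pairs in the main test. Libraries with the same number in the titles, 1, 3 and 4, correlated at 0.57, 0.70 and -0.24 in their deviations from group means. These values do not settle whether they are pairs. With a replicate block, Fads2 differed by 0.29 and Acsl4 by 0.68, the log2 ratios Fads2:Fads1 by 0.11 and Acsl4:Acsl3 by 0.66, and 0 genes passed. Depth limits Elovl2, with 3 to 22 fragments per library, and Fads6, with as few as 13.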

Other observations

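Of the further lists, 3 genes varied with an SD over 1 in log2(FPKM + 1) across the 7 libraries: Mfsd2a, Hacd4 and Acsl3. Mfsd2a, a transporter of lysophospholipids that carry docosahexaenoic acid, was at 23.1, 9.66, 1.03 and 18.8 FPKM in LIT-927 replicates 1 to 4, against 54.5, 3.24 and 8.58 FPKM in vehicle replicates 1, 3 and 4. Hacd4, a dehydratase gene of the elongation cycle, was at 15.2, 8.86, 0.368 and 6.68 FPKM with LIT-927, against 8.12, 2.44 and 3.16 FPKM with vehicle. Both were lowest in LIT-927 replicate 3 and next lowest in vehicle replicate 3, the libraries lowest in Fads2. Hacd4 thus varied 41.2-fold where Hacd3 of the same family varied 1.73-fold. Both genes were picked after their values were seen.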
